A study of Mus musculus with 16 samples.

Results

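The response to dexamethasone (Dex), a synthetic glucocorticoid, was compared between wild type (WT) and NELF-B knockout (KO) bone-marrow-derived macrophages (BMDM), which are macrophages grown from bone marrow cells in culture. Of the 16 RNA-seq libraries, the 12 that received lipopolysaccharide (LPS) or LPS with Dex were used, 3 for each genotype and treatment. They came from 3 WT and 3 KO mice, and each LPS + Dex library was paired with the LPS library of its own animal. All 9614 genes of the table were examined. The remaining 4 libraries were untreated. The mice were C57BL/6 males of 8 weeks, and the cells were given LPS at 10 ng/ml, a component of the outer membrane of bacteria, for 1 hr, alone or with 100 nM Dex. WT mice were LysM-Cre:NELF-B wt/wt and KO mice LysM-Cre:NELF-B fl/fl, so both genotypes carried the Cre recombinase, which the LysM promoter drives in myeloid cells. In each genotype the animals are named by the letters A, B and C, and values are given in that order throughout.

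NELF is a protein complex, with NELF-B among its subunits, that holds RNA polymerase II shortly after the start of transcription, and the kinase P-TEFb releases it. LPS acts through Toll-like receptor 4 to switch on cytokine genes within minutes, some by loading polymerase and others by releasing polymerase that is already paused. Glucocorticoids bind the glucocorticoid receptor (GR), which enters the nucleus, represses many of these inflammatory genes and activates others, among them inhibitors of inflammatory signalling. The comparison asks whether loss of NELF-B alters what Dex does to each gene.

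The 12 libraries held 29800000 to 49700000 reads on the genes of the table, recovered from the deposited values, and 3 reads corresponded to 0.0653 to 0.104 CPM, the read count of a gene relative to the library size. Correlations between libraries ranged from 0.950 to 0.993. Nelfb, the targeted gene, had 5.59 to 5.76 log2 CPM in the 6 WT libraries and 3.27 to 4.22 in the 6 KO libraries, with no overlap. In KO mice A, B and C it was at 3.27, 4.21 and 3.48 under LPS and at 3.28, 4.22 and 3.53 under LPS + Dex. KO mouse B thus kept the most Nelfb RNA, and the part of this in the genotype differences was not tested. The genotype difference of Nelfb in the Dex change was 0.01 (95% interval -0.13 to 0.16). Of 9 macrophage markers 8 were in the table, summing to 8380 to 9513 CPM in each library. Adgre1 was not among them. Most markers of other cells were absent from the table. Those present were 2 of 10 for neutrophils, 2 of 9 for B and T cells (19.2 to 89.9 CPM), 2 of 6 for dendritic cells (6.64 to 25.1 CPM) and 4 of 8 for stromal and erythroid cells, all 4 of them stromal (64.4 to 145 CPM). The summed neutrophil markers, S100a8 and Mmp8, were at 43.8 to 55.9 CPM in the WT and 57.8 to 102 CPM in the KO libraries, without overlap, and their part in the genotype differences was not tested. In such bulk samples, fewer cells of a type and less RNA per cell cannot be told apart.

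Most genes that Dex changed moved in the same direction and by similar amounts in both genotypes. Averaged over the genotypes, Dex lowered 856 genes (8.9% of the 9614) and raised 792 (8.24%) at a false discovery rate (FDR) under 0.05 in limma with the mouse as a block. In the WT, 543 genes were lowered (5.65%) and 459 raised (4.77%), and in the KO 672 were lowered (6.99%) and 683 raised (7.1%). The genes lowered in both numbered 435, which is 80.1% of those lowered in the WT and 64.7% of those lowered in the KO. Those raised in both numbered 389, 84.7% and 57.0% of the respective lists. Over all 9614 genes, 6138 had changes of the same sign in both genotypes, as had 4496 of the 7966 not called by the mean. Most genes called in a single genotype had a change of the same sign in the other. That held for 86.1% of the 108 genes called lowered in the WT alone and for 83.5% of the 237 called lowered in the KO alone. For genes called raised in a single genotype it held for 92.9% of 70 in the WT and 81.3% of 294 in the KO. The difference between the genotypes passed the test for 1 gene among all of these.

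**Figure D1:**
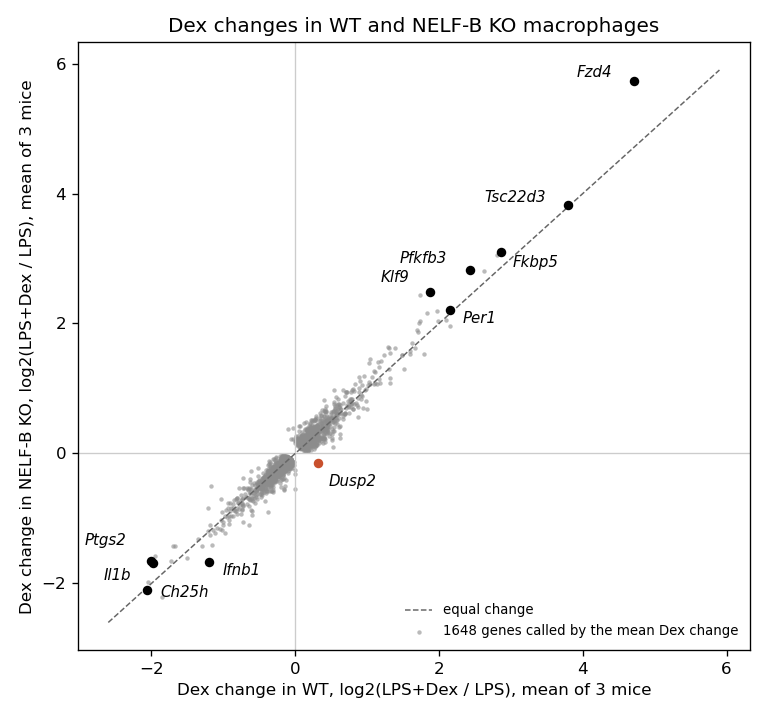
Dex change in the WT (horizontal) against Dex change in the NELF-B KO (vertical) for the 1648 genes called by the mean of the genotypes, each on the log2 scale as the mean of 3 mice. The dashed line marks equal change. Points follow the line from Ch25h (-2.06 and -2.10) to Tsc22d3 (3.80 and 3.82), Fzd4 lies above it at 4.71 and 5.74, and Dusp2 lies across the horizontal axis at 0.32 and -0.145.

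The sizes of the responses overlapped between the genotypes. Over all 9614 genes, the mean Dex changes of WT and KO correlated with r = 0.889, and over the 1648 genes called by the mean with r = 0.974. These are correlations across genes, which are not independent replicates, and the second set was chosen for a large mean change. Single mice of different genotypes correlated with r = 0.675 to 0.794 over all genes, a range that covers much the same values as single mice of the same genotype (0.694 to 0.798 in the WT and 0.700 to 0.783 in the KO). A symmetric line through 0 over the 1648 genes had a slope of 1.08 for KO on WT. Scaled on the mean change, the slopes of mice A, B and C were 0.894, 1.07 and 0.922 in the WT and 0.986, 1.12 and 1.00 in the KO. WT mouse B thus lay above KO mice A and C, so the genotypes overlapped in the size of the response. At each of the letters A, B and C, however, the KO slope was above the WT slope. Marks of a meaning not given join the WT and the KO mouse of a letter.

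A total of 1 gene differed between the genotypes in its Dex change at an FDR under 0.05 (0.0104% of the genes tested). At an unadjusted p under 0.05, 669 genes were counted (6.96%), of which 442 had a higher change in the KO (4.6%) and 227 a lower one (2.36%). The 3 KO changes did not overlap the 3 WT changes in 1246 genes (13%), with KO above WT in 739 (7.69%) and below in 507 (5.27%). The data limited how large a missed difference could be. The 95% interval of the difference lay within 1.5-fold in either direction for 9328 genes (97.0%), including 1584 of the 1648 genes that Dex changed. That limit, 0.585 log2, is larger than the median WT change of the Dex-lowered genes (-0.20) and of the Dex-raised genes (0.23). For many of them, lying within it does not by itself exclude loss of the Dex change. Among genes changed more than 2-fold, 39 of 53 raised (73.6%) and 25 of 28 lowered (89.3%) lay within it. The precision of the intervals came from the pairing: the median standard deviation between mice was 0.17 log2 for the level under LPS and 0.088 for the Dex change of a mouse.

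Dusp2, a nuclear phosphatase that inactivates MAP kinases, was the gene that passed. It lies on chromosome 2 from 127336159 to 127338376 on the plus strand (GRCm38). In WT mice A, B and C its level under LPS was 6.48, 7.88 and 7.20 log2 CPM, and under LPS + Dex it was 6.79, 8.19 and 7.55. In KO mice A, B and C its level under LPS was 8.29, 8.41 and 8.30, and under LPS + Dex it was 8.18, 8.31 and 8.07. Dex thus raised Dusp2 in each WT mouse and lowered it in each KO mouse. Under LPS every KO library lay above every WT library, whereas under LPS + Dex the groups overlapped, with WT mouse B between the KO mice. The untreated libraries, 2 per genotype, had 2.86 and 3.56 in the WT and 3.36 and 3.83 in the KO, all below the LPS libraries of their genotype. The Dex changes were 0.32, 0.31 and 0.34 in the WT and -0.11, -0.099 and -0.23 in the KO. Fitted, they were 0.32 (SE 0.034, limma adjusted p = 2.6e-05) and -0.145 (SE 0.034, adjusted p = 0.0119), or 1.25-fold higher and 1.11-fold lower. The difference was -0.47 (SE 0.048, 95% interval -0.57 to -0.36, limma adjusted p = 0.00452). The call rested on the pairing and on WT mouse C: the adjusted p was 1 without the mouse block, 0.0666 with the mouse letter as a further term, 0.282 without the variance trend and 0.0826 without WT mouse C, while the estimate stayed between -0.43 and -0.49 in all settings tried. The decrease in the KO taken alone was not called without KO mouse C (-0.10, adjusted p = 0.144), without the variance trend (adjusted p = 0.0651) or without the mouse block.

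**Figure D2:**
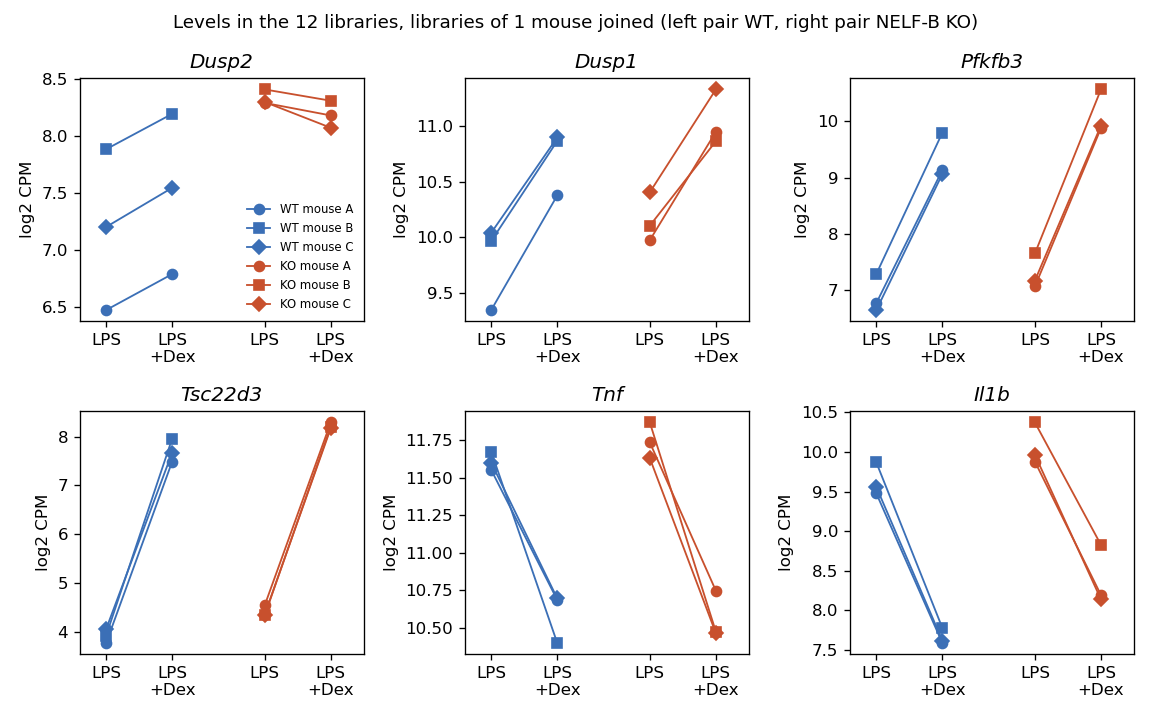
Levels (log2 CPM, vertical) of 6 genes under LPS and LPS + Dex, with the libraries of 1 mouse joined and WT at left, KO at right in each panel. The lines of Dusp2 rise in the 3 WT mice and fall in the 3 KO mice, while those of Dusp1, Pfkfb3, Tsc22d3, Tnf and Il1b run the same way in all 6 mice.

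None of the other 6 MAP kinase phosphatases listed passed the test of the genotype difference. Dusp1, the phosphatase best known as a GR target, was raised by 0.93 in the WT and 0.89 in the KO, with a difference of -0.04 (95% interval -0.19 to 0.10). Its level rose from 9.35, 9.97 and 10.04 to 10.38, 10.87 and 10.90 in the WT mice and from 9.97, 10.10 and 10.41 to 10.95, 10.87 and 11.33 in the KO mice. Dusp6, which acts on ERK, was raised by 0.51 and 0.58. Dusp4, Dusp5 and Dusp8 were lowered, by mean changes of -1.17, -0.47 and -1.21, with genotype differences of -0.03, 0.08 and 0.02. Dusp16, a phosphatase of JNK and p38, was raised on average by 0.26, with 0.14 in the WT and 0.38 in the KO (difference 0.24, adjusted p = 0.452 in limma).

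The genes next in rank were chosen for a small p and for mouse changes that do not overlap between the genotypes, and none passed the adjusted test. Pfkfb3, whose enzyme makes an activator of glycolysis, was raised 5.39-fold in the WT and 7.09-fold in the KO. Its Dex changes were 2.37, 2.51 and 2.42 log2 in the WT mice and 2.81, 2.91 and 2.75 in the KO mice. The KO changes lay above the WT changes in every pair of mice, by 0.40 on average (95% interval 0.27 to 0.52, limma adjusted p = 0.0539). That adjusted p was 0.0446 without WT mouse B, 0.0495 without KO mouse B and 0.0131 with a robust variance prior. Leaving out any of the other mice gave 0.123 to 0.211, and it was 0.650 without the variance trend and 1 without the mouse block. Map3k2, a kinase upstream of MAP kinases, changed by 0.05 in the WT and 0.43 in the KO (difference 0.37, adjusted p = 0.138 in limma). Zbtb20, a zinc finger transcription factor, changed by -0.10 and 0.37 (difference 0.47, adjusted p = 0.138), and with a correction for transcript length the difference was 0.24 (adjusted p = 0.987). Gapdh, a glycolytic enzyme with many processed copies in the genome that make its count uncertain, changed by -0.12 and 0.21 (difference 0.33, adjusted p = 0.138).

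In the other direction, the KO change lay below the WT change for 3 further genes. Dnajb1, a heat shock co-chaperone, had Dex changes of 0.04, 0.04 and -0.10 in the WT and of -0.30, -0.29 and -0.36 in the KO (difference -0.31, limma adjusted p = 0.224). Rpl41, a very short ribosomal protein gene, had a difference of -0.31 (adjusted p = 0.224). Ifnb1, which encodes interferon beta, was lowered in both genotypes, 2.30-fold in the WT and 3.18-fold in the KO. Its changes were -1.28, -1.16 and -1.17 in WT mice and -1.66, -1.89 and -1.45 in KO mice (difference -0.47, 95% interval -0.68 to -0.25, limma adjusted p = 0.234). Besides Dusp2, 1 gene was called in opposite directions: Ahnak, a giant scaffold protein, had -0.21 in the WT (limma adjusted p = 0.00676) and 0.145 in the KO (adjusted p = 0.0478). Its difference of 0.35 had an adjusted p of 0.138, and with a correction for transcript length its KO change turned to -0.04.

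**Figure D3:**
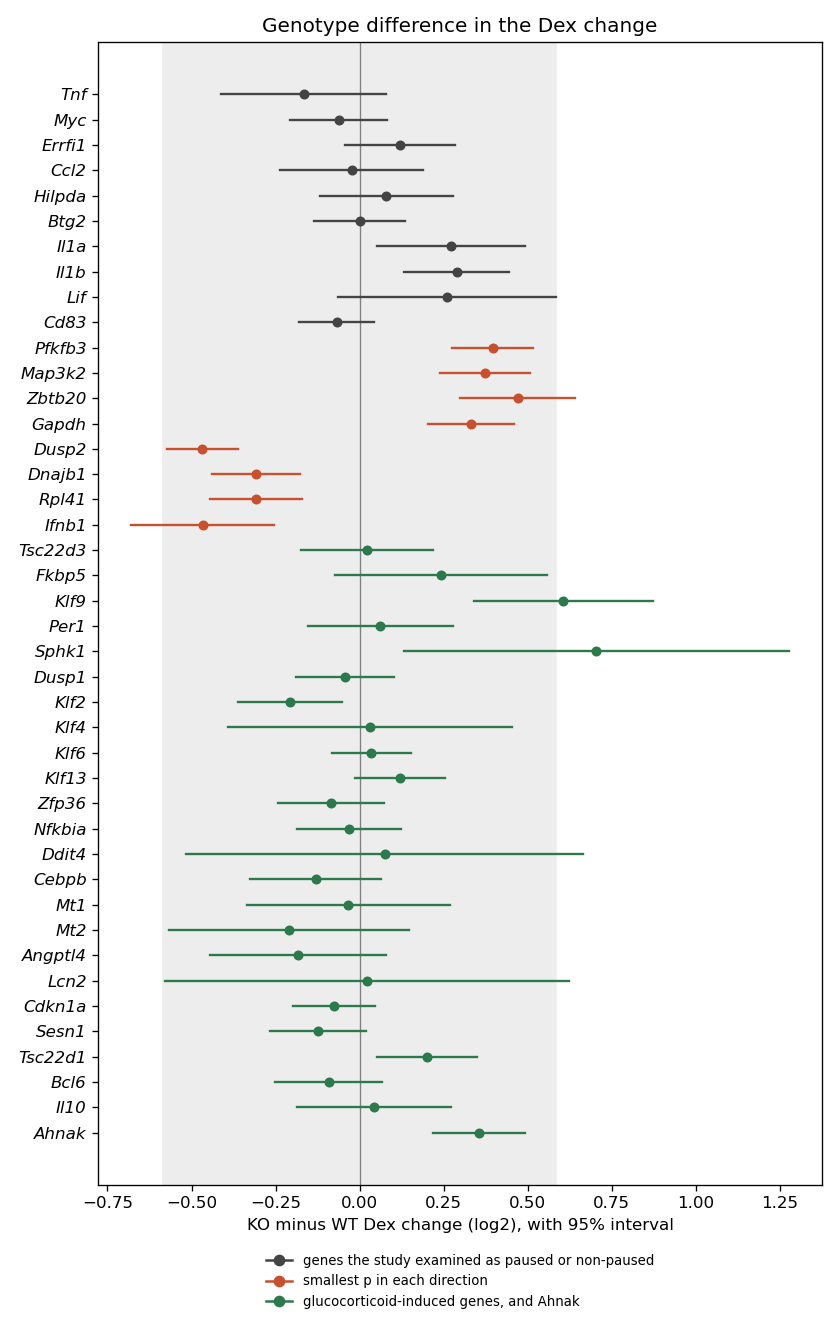
KO minus WT Dex change (log2, horizontal) with its 95% interval for named genes, where 0 means an equal change and the shaded band spans 1.5-fold in either direction. All 10 genes examined by the study as paused or non-paused have intervals within the band, the interval of Dusp2 lies wholly below 0 at -0.57 to -0.36, and Klf9 and Sphk1 lie at 0.61 and 0.70. Of the genes raised most, those outside the glucocorticoid-induced list are not shown, Pfkfb3 excepted.

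The study examined some LPS-induced genes as paused before induction (Tnf, Myc, Errfi1, Ccl2, Hilpda and Btg2) and others as non-paused (Il1a, Il1b, Lif and Cd83). By RT-qPCR, the paper reports weaker Dex repression of Tnf, Myc, Errfi1 and Ccl2 in the KO, but not of Il1b and Lif. RT-qPCR is a different assay from RNA-seq, and Tnf was measured in it at a shorter time. From RNA-seq under LPS + Dex, the paper also reports a subset of its Dex-repressed genes at higher levels in the KO. Most of that subset lay outside its non-paused class. That comparison is of levels under LPS + Dex, whereas the difference given here is one of Dex changes. In the libraries used here, Dex lowered all 10 genes in each genotype. Over the 6 paused genes, the medians of the mice were -0.65, -0.80 and -0.615 in the WT and -0.64, -0.65 and -0.67 in the KO, and the median of the 6 differences was -0.012, with 4 below 0. Over the 4 non-paused genes they were -1.52, -2.02 and -1.52 in the WT and -1.52, -1.36 and -1.44 in the KO, and the median difference was 0.27, with 3 above 0. WT mouse B had the strongest decrease in both groups, and the other WT mice lay close to the KO mice. None of the 10 differed between the genotypes after adjustment, and all 10 intervals lay within 1.5-fold. That limit is larger than the WT Dex changes of Myc (-0.46) and Btg2 (-0.55). Their own intervals were narrower, at -0.21 to 0.08 and -0.14 to 0.13. At an unadjusted p under 0.05 there were 2 of the 10, both non-paused, beside 6.96% of all genes. Tnf, a central inflammatory cytokine, fell from 11.55, 11.67 and 11.60 to 10.69, 10.40 and 10.70 log2 CPM in the WT mice. In KO mice A, B and C it fell from 11.74, 11.87 and 11.63 to 10.75, 10.48 and 10.46. The decreases were 2.02-fold and 2.27-fold, and the difference of -0.17 had an interval of -0.41 to 0.08 (limma adjusted p = 0.803), and was -0.30 without WT mouse B and -0.061 without KO mouse B. Btg2, an antiproliferative gene, had the same change to 2 decimals in each genotype (-0.55), with an interval of -0.14 to 0.13 for the difference, although its level under LPS was higher in every KO library (8.60 to 8.70) than in every WT library (7.47 to 8.04). Errfi1, a feedback inhibitor of the EGF receptor, shared that arrangement, with 8.04 to 8.40 in the KO and 7.14 to 7.48 in the WT under LPS, and its Dex changes of -0.64 and -0.52 differed by 0.12 (interval -0.04 to 0.28).

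Il1b and Il1a, the interleukin-1 cytokines, were the 2 genes with an unadjusted p under 0.05. Il1b fell from 9.48, 9.87 and 9.56 to 7.59, 7.78 and 7.62 in WT mice A, B and C. In KO mice A, B and C it fell from 9.88, 10.37 and 9.96 to 8.19, 8.83 and 8.14. Every KO change was smaller in size than every WT change, and the difference was 0.29 (interval 0.13 to 0.44, limma adjusted p = 0.319). The decrease was 3.93-fold in the WT and 3.21-fold in the KO. For Il1a it was 3.24-fold and 2.68-fold (difference 0.27, interval 0.05 to 0.49, limma adjusted p = 0.656), and without WT mouse B the difference was 0.12. Lif, a cytokine of the interleukin-6 family, had a difference of 0.26 with an interval of -0.07 to 0.58, which was 0.07 without WT mouse B and 0.17 without KO mouse B. Cd83, a surface marker of activation, had -0.07 (interval -0.18 to 0.04).

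Among the 6 genes with the largest mean decrease, Dex effects ran both above and below the WT in the KO. Ch25h, whose enzyme makes 25-hydroxycholesterol, was lowered 4.17-fold and 4.29-fold, and Olr1, the receptor for oxidised low density lipoprotein, 4.14-fold and 3.94-fold. Plau, the urokinase plasminogen activator, was lowered more in the KO (4.62-fold against 3.60-fold, difference -0.36, limma adjusted p = 0.304). Ptgs2, which encodes cyclooxygenase 2, was lowered less in the KO (difference 0.34, adjusted p = 0.138). Its mouse changes were -2.05, -2.09 and -1.86 in the WT and -1.70, -1.61 and -1.68 in the KO. Serpinb2, an inhibitor of plasminogen activators, was lowered 3.86-fold and 2.99-fold (difference 0.37, adjusted p = 0.480). The mouse changes of Plau, Ptgs2, Serpinb2 and Il1b did not overlap between genotypes (4 of the 6 genes, against 13% of all genes), and none of the 6 genes passed the adjusted test of the difference. Over all 28 genes lowered more than 2-fold by the mean, the WT median was -1.21 and the KO median -1.29.

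The genes that Dex raised most include known GR targets. Tsc22d3 encodes the glucocorticoid-induced leucine zipper, an inhibitor of NF-kB and AP-1. It rose from 3.76, 3.92 and 4.05 to 7.49, 7.96 and 7.67 log2 CPM in the WT mice. In KO mice A, B and C it rose from 4.54, 4.33 and 4.35 to 8.29, 8.20 and 8.17. The increase was 13.9-fold in the WT and 14.1-fold in the KO (difference 0.02, interval -0.17 to 0.22). Fkbp5, a GR co-chaperone that dampens the receptor, was raised 7.24-fold and 8.56-fold, and Per1, a clock gene, 4.43-fold and 4.62-fold. The intervals of their differences spanned 0, at -0.07 to 0.56 and -0.15 to 0.28. Fzd4, a Wnt receptor, had the largest increase, from 7 to 21 reads to 219 to 487 reads in the WT and from 4 to 12 reads to 330 to 488 reads in the KO. Its difference of 1.03 (interval 0.45 to 1.61, limma adjusted p = 0.343) rests on those low LPS counts, where the log2 value depends on the prior count. Prss16, a serine protease, was raised 6.97-fold in the WT and 8.28-fold in the KO, from 23 to 130 reads under LPS. Its Dex changes overlapped, at 1.655, 3.72 and 3.03 in the WT mice and 2.67, 3.03 and 3.45 in the KO mice. The interval of its difference was -0.62 to 1.11. Il15ra, a receptor chain for interleukin-15, was raised by 2.63 and 2.81 log2. The uncharacterised gene 1700017B05Rik was raised 3.92-fold and 4.59-fold.

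Of the 30 genes listed as glucocorticoid-induced, 27 were in the table, 17 were raised by the mean of the genotypes, 6 were lowered and 4 were not called, beside 8.24% of all genes raised and 8.9% lowered. The median difference between the genotypes was 0.021, with 14 genes above 0 and 13 below. The same count of 17 was raised in each genotype taken alone. Klf9, a transcription factor induced by GR in many tissues, had Dex changes of 1.90, 1.98 and 1.76 in the WT and 2.37, 2.62 and 2.47 in the KO, without overlap (3.68-fold and 5.59-fold, difference 0.61, interval 0.34 to 0.87, limma adjusted p = 0.224). Sphk1, a sphingosine kinase, was raised 3.34-fold and 5.44-fold (difference 0.70, interval 0.13 to 1.28, adjusted p = 0.660). Il10, an anti-inflammatory cytokine, was raised 2.01-fold and 2.07-fold, and Klf4, a transcription factor of alternative activation, 2.81-fold and 2.86-fold. Klf2, a related factor that restrains inflammation, was raised 1.54-fold and 1.34-fold (difference -0.21, adjusted p = 0.597). Klf13, Ddit4, Cebpb, Lcn2, Sesn1 and Tsc22d1 were also raised, by 0.27 to 1.66 log2 on average. The 6 lowered genes were Klf6, Zfp36, Nfkbia, Angptl4, Cdkn1a and Bcl6, with mean changes of -0.68 (Zfp36, an mRNA decay factor) to -0.12 (Nfkbia, the inhibitor of NF-kB). None of the 27 passed the adjusted test of the genotype difference.

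The metallothioneins Mt1 and Mt2, small metal-binding proteins and classical GR targets, were raised by 0.75 and 1.52 log2 in the WT and by 0.72 and 1.31 in the KO, with differences of -0.03 (interval -0.34 to 0.27) and -0.21 (interval -0.57 to 0.15). Mt1 and Map3k6 were the only genes holding the GR motif GNACANNNTGTNC in the 250 bases before the RefSeq start, among the named genes and those raised more than 2-fold that had a matched promoter. Map3k6, a stress kinase, was named for this motif after its values were seen. It was raised 3.26-fold in the WT and 3.64-fold in the KO (difference 0.16, interval -0.24 to 0.55). Their upstream sequences, shown for the motif in capitals, are set beside that of Dusp2, the gene with a genotype difference, which holds none of the motifs searched. The Mt1 stretch is chr8:94178839-94179088, the Map3k6 stretch chr4:133240568-133240817 and the Dusp2 stretch chr2:127335909-127336158, all on the plus strand of GRCm38.p6, printed 5′ to 3′ and ending at the base before the start.
Mt1: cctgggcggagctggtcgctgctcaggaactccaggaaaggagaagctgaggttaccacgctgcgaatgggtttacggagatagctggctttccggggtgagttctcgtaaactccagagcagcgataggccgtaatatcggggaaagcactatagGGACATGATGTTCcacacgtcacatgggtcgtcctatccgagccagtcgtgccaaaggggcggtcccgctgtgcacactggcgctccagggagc
Map3k6: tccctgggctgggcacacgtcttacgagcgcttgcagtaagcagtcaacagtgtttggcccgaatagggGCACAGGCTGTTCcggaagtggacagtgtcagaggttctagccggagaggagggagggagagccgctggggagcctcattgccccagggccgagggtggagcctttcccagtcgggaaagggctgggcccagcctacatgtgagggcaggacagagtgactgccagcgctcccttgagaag
Dusp2: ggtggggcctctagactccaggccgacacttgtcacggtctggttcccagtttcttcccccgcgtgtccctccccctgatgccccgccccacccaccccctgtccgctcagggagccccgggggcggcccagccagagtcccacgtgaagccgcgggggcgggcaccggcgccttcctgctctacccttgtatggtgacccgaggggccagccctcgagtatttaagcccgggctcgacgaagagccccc

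The motif in Mt1 begins 94 bases before the start, and that in Map3k6 begins 181 bases before it. Both strands were searched, and the GR motif is its own reverse complement. Promoters on chromosome 18 were left out of the shares given here for each motif. The GR motif was found in 0.387% of 32851 promoters of that length and in 0.158% of the 9476 promoters of genes in the table. It was in 3 of the 801 promoters of Dex-raised genes (0.375%) and in 1 of the 878 of Dex-lowered genes (0.114%). The AP-1 motif TGANTCA was in 4.42% of the promoters of genes in the table, 6.37% of those of Dex-raised genes and 5.81% of those of Dex-lowered genes. The cAMP response element TGACGTCA, at 2.74% of the promoters of genes in the table, was found upstream of Dusp1, Ch25h, Errfi1 and Btg2 among the named genes. RefSeq promoters were matched for 45 of the 53 named genes. A match describes these letters only.

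Changes in the KO exceeded those in the WT by a small amount over the Dex-raised genes. The WT had a median change of 0.23 over the 792 genes and the KO one of 0.27, and the KO change was the higher in 543. At an unadjusted p under 0.05, 101 had a higher change in the KO (12.8%, against 4.6% of all genes) and 12 a lower one (1.52%, against 2.36%). Over the 53 genes raised more than 2-fold, the medians of mice A, B and C were 1.36, 1.59 and 1.29 in the WT and 1.38, 1.69 and 1.43 in the KO. WT mouse B lay above KO mice A and C, so the genotypes overlapped, although at each letter the KO median was above the WT median. Over the 856 Dex-lowered genes the medians were -0.20 and -0.23, with 29 genes at a higher and 43 at a lower change in the KO (3.39% and 5.02%). The genes were chosen by the mean of the genotypes, and these counts are a description without a test.

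In the lists of LPS-response genes, Dusp2 was the only member with a genotype difference past the adjusted test. Of 27 cytokines and chemokines in the table, Dex lowered 23 and raised 3, Il10, Cxcl1 and Ccl9, where 8.9% of all genes were lowered and 8.24% raised. Il6 was lowered by 0.92 log2 in the WT and 1.08 in the KO, Il12b by 1.09 and 1.14, Cxcl10 by 0.82 and 0.85 and Ccl3 by 0.74 and 0.88. At an unadjusted p under 0.05, 3 of the 27 had a higher and 2 a lower change in the KO, where all genes had 4.6% and 2.36%. The 20 immediate-early transcription factors, which respond first to LPS, comprised 14 lowered and 4 raised genes. Among the lowered were Egr2 (-1.50 in the WT and -1.60 in the KO), Ier3 (-1.35 and -1.32) and Atf3 (-0.95 and -0.98). Fos and Jun, the partners in AP-1, were raised. Fos changed by 0.54 with NELF-B and by 0.34 without it (difference -0.20, interval -0.31 to -0.10, limma adjusted p = 0.304), and Jun by 0.52 and 0.54. Of 26 feedback inhibitors of inflammatory signalling, 17 were lowered and 8 raised, with Dusp2 as the gene that differed. Tnip1, Nfkbie and Nfkbid, which restrain NF-kB, were lowered by mean changes of -0.32, -0.43 and -0.56, and Zc3h12a, an RNase that degrades cytokine mRNAs, was raised by 0.38. The median difference, KO minus WT, was -0.0073 over the cytokines, 0.021 over the transcription factors and 0.018 over the feedback inhibitors, beside 0.0057 over all genes.

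**Figure D4:**
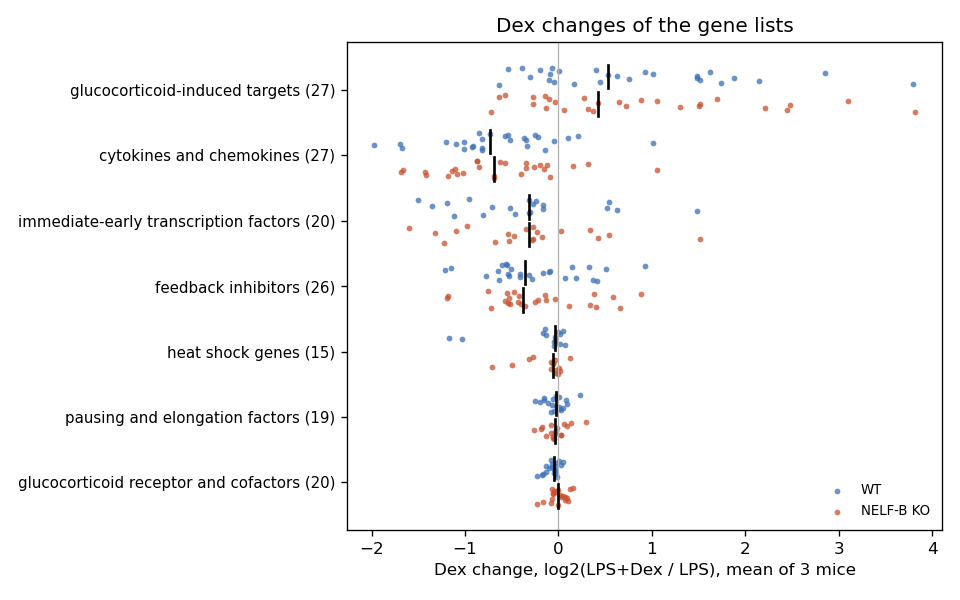
Dex change (log2, horizontal) of each member of 7 gene lists, with WT above KO in each pair of rows, a point for each gene (mean of 3 mice), a black bar at the median and the number of genes in brackets. The medians of WT and KO are at -0.74 and -0.69 for cytokines and chemokines and at 0.53 and 0.42 for glucocorticoid-induced targets, whose median difference per gene is 0.021.

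Of 15 heat shock genes, 6 were lowered (40%) and none raised, beside 8.9% and 8.24% of all genes. Their median change was smaller in size than that of the cytokines, at -0.036 (WT) and -0.054 (KO). The near-identical copies Hspa1a and Hspa1b, whose reads may be divided between them, had changes of -1.17 and -1.03 in the WT and of -0.50 and -0.71 in the KO. Hspa1a, at a mean level of 1.79 log2 CPM, had a difference of 0.68 (interval 0.01 to 1.34, limma adjusted p = 0.715). The 173 genes in the table that the study lists as repressed by Dex had a median change of -0.55 in each genotype. Their median difference was 0.016, and 98 of the 173 were above 0. At an unadjusted p under 0.05, 14 had a higher and 7 a lower change in the KO (8.09% and 4.05%, against 4.6% and 2.36% of all genes). The medians of mice A, B and C were -0.52, -0.65 and -0.54 in the WT and -0.55, -0.61 and -0.55 in the KO, so those of the KO lay within the range of those of the WT. The study chose this list on WT libraries used here, so its direction in the WT is not independent evidence.

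The genotype difference in the Dex change moved with transcript length across the genes. Of the 9614 genes, 9211 (95.8%) had a length in the annotation, taken as the longest transcript. In the tenth with the shortest transcripts (204 to 1493 nucleotides) the median difference was -0.050, with 7.59% of genes at a lower and 1.08% at a higher change in the KO at an unadjusted p under 0.05. In the tenth with the longest transcripts (6838 nucleotides or more) the median was 0.087, with 0.326% lower and 22.7% higher. Long genes such as Ahnak (18100 nucleotides), Zbtb20 (26901) and Map3k2 (10684) lay on one side, and the short Rpl41 (695) on the other. The mice contributed unequally. The Spearman correlation of the Dex change with length over the 9211 genes was -0.064, -0.097 and 0.0095 in the WT mice and 0.058, 0.21 and 0.33 in the KO mice, a description across genes.

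**Figure D5:**
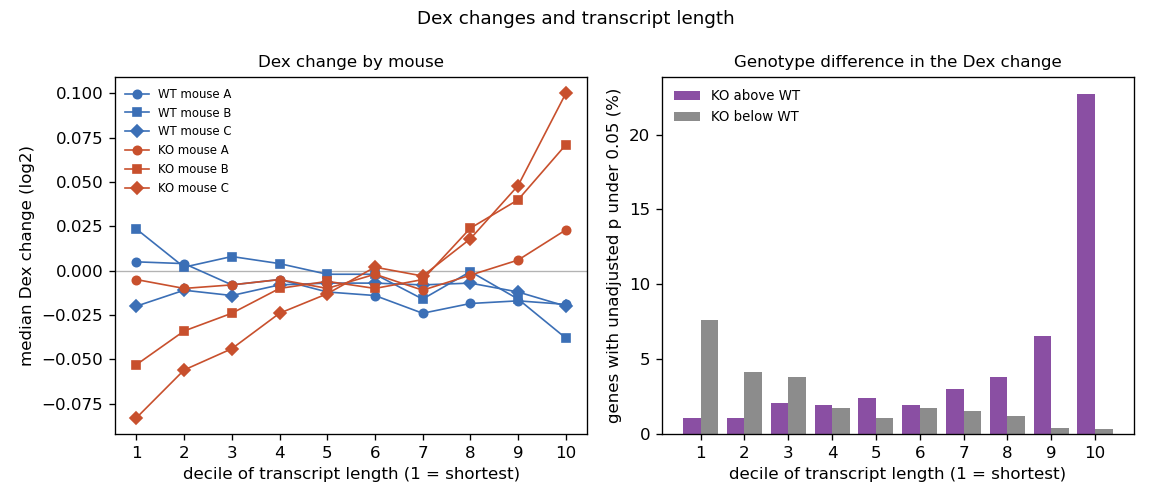
Left, median Dex change (log2) of each mouse by decile of transcript length from shortest to longest. Right, percentage of genes in each decile with an unadjusted p under 0.05 for the genotype difference, as bars for KO above and KO below WT. The lines of KO mice B and C rise from -0.053 and -0.083 in the first decile to 0.071 and 0.10 in the last, and the bars for KO above WT reach 22.7%.

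With each mouse's Dex change corrected for length, an alternative chosen after seeing the data, the genes with an unadjusted p under 0.05 fell in number from 669 of 9614 to 418 of 9211, and the share with KO above WT went from 66.1% to 53.8%. Centring the libraries on the median gene gave 57.7%. Dusp2, with a transcript of 1617 nucleotides, kept a difference of -0.44 (limma adjusted p = 0.00525) and remained the 1 gene called. Over 759 Dex-raised genes with a length, 68 had a higher (8.96%) and 13 a lower (1.71%) change in the KO after the correction, beside 2.44% and 2.1% of all genes. RNA quality of the libraries was not measured in the files, and its part in the relation with length was not tested.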

How the data were processed

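RNA-seq of mouse BMDM was analysed from 1 table of the whole series. The authors prepared polyA-selected libraries, mapped paired reads to mm10 by CLC Bio Genomic Workbench, took the unique reads in exons of each gene, scaled the counts in edgeR and deposited log2 CPM. The submitters' processing notes also name CASAVA 1.8 and FastQC. Other versions, the filter that left 9614 genes and the strand setting are not given in the sources used here. The table also holds the p-values and FDR of the authors' own pairwise comparisons, deposited beside the log2 values, which were not used. A test on counts was not used, because the values are log2 CPM.

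Groups and animals were taken from the labels. The deposited log2 values of the 12 libraries were fitted with lmFit and eBayes (variance trend) in limma 3.58.1 under R 4.3.3, with the mouse as a block and the Dex change of each genotype as terms. The contrasts were KO minus WT Dex change, each genotype's change and their mean, with 4 residual degrees of freedom, Benjamini-Hochberg adjustment over all 9614 genes, an FDR under 0.05, no pseudocount and no further filter. The fit was tested on simulated data. The labels print 1 animal number on both libraries of a mouse, and their deviations from the group means correlated with r = 0.781 to 0.939 for the 6 mice, so the pairing was used.

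Whole reads were recovered from the steps of the deposited log2 values (100% of values under 3 CPM whole within 0.1 read in every library). Intervals and floors of 3 reads cover counting error or the spread between these mice only. Gene positions and transcript lengths are from GENCODE vM21 (GRCm38, the assembly of mm10) and promoters from RefSeq (GRCm38.p6). Python 3.11.15, pandas 2.3.3, numpy 2.4.6, scipy 1.17.1 and matplotlib 3.10.9 were used.

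Named genes were Nelfb and the genes the study examined as paused or non-paused, the 4 genes in each direction with the smallest p for the difference, non-overlapping mouse changes and a mean above 1 log2 CPM (fewer than 4 passed the FDR), the 6 most lowered and 10 most raised genes that moved the same way in all 6 mice, the called glucocorticoid-induced genes and genes called in opposite directions. Further list members are examples. The members, the lists and the tests were chosen with earlier results of these data known. Alternatives were other blocks (among them the mouse letter, which joins 1 WT and 1 KO mouse by marks that the labels print on some libraries, of a meaning not given), filters, scalings, variance priors and thresholds, voom on recovered reads and leaving out each mouse. The length correction was added after seeing the data.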

Additional observations from a re-analysis of the deposited data

Results flagged for a closer look

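Dusp2 was singled out because its Dex change differed between the genotypes by the test of the difference itself (-0.47 log2, limma adjusted p = 0.00452). Dex raised it in 3 of 3 WT mice and lowered it in 3 of 3 KO mice. Its adjusted p ranged from 0.000865 to 1 over the alternatives.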

How the results depend on the processing

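The number of genes with a genotype difference was 1. It became 0 with no replicate block, with the mouse letter as a further term and without the variance trend. It was 2 with a robust prior, 2 at an FDR under 0.1 and 669 at an unadjusted p under 0.05. Leaving out each mouse gave 0 to 5: 0 without WT mouse C, 3 without WT mouse B (Dusp2, Pfkfb3 and D10Wsu102e) and 5 without KO mouse B (Dusp2, Rnf213, Malat1, Macf1 and Pfkfb3). It stayed at 1 under the filter on mean level, log2(CPM + 1), centring, voom and the length correction, with Dusp2 the gene in each case.

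With no replicate block, Dex lowered 36 genes in the WT, 50 in the KO and 117 by the mean and raised 74, 90 and 161, and 5992 in place of 9328 genes had an interval within 1.5-fold. Over 1.3-fold, the lowered numbered 206, 238 and 220 and the raised 223, 257 and 235. At an unadjusted p under 0.05 they numbered 1026, 1209 and 1386 lowered and 777, 1219 and 1203 raised. Without KO mouse C, 430 genes were lowered and 452 raised in the KO, and leaving out other mice kept these counts within 1.5 times. Over the left-out mice, the genes lowered numbered 376 to 627 in the WT, 430 to 669 in the KO and 661 to 842 by the mean, and the genes raised 329 to 512, 452 to 679 and 622 to 730. The slope of KO on WT stayed between 1.03 and 1.13, and the median difference over the study's list between -0.024 and 0.036. Differences near 0 changed sign. Over the left-out mice, that of Nelfb ranged from -0.010 (without WT mouse B) to 0.034, that of Ccl2 from -0.12 to 0.085 (without KO mouse B), that of Hilpda from -0.022 (without WT mouse B) to 0.16 and that of Btg2 from -0.041 to 0.055 (without either mouse B). With the length correction, that of Ccl2 was 0.023 and that of Btg2 0.0079. In these cases the cause was not tested.

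With 3 mice per genotype, the unadjusted 95% interval of a difference reached 0.16 log2 to either side (median over genes). Smaller differences could thus not be told from 0 for many genes. The adjusted test was stricter, and larger differences also failed it. Examples were Klf9 at 0.61 (limma adjusted p = 0.224) and Ifnb1 at -0.47 (adjusted p = 0.234).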

Other observations

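Cell surface and lineage genes of macrophages changed little with Dex and in the same direction in both genotypes where called. Cd14, the LPS co-receptor, was raised by 0.21 log2 in the WT and 0.34 in the KO, and Mertk, a receptor for the uptake of apoptotic cells, by 0.19 and 0.22. By the mean of the genotypes, Spi1, the macrophage transcription factor PU.1, was lowered (-0.13 and -0.24), as was Lyz2 (-0.19 and -0.05). Of the markers of other cells, S100a8 of neutrophils was raised by the mean (0.29 and 0.30), and those of B and T cells, dendritic cells and stroma were not called.

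Of 19 pausing and elongation factors, Dex lowered 4 and raised 1 by the mean of the genotypes, beside 8.9% and 8.24% of all genes. The lowered genes were Cdk9, the kinase of P-TEFb (-0.16 and -0.17), its cyclin Ccnt1 (-0.15 and -0.08), its inhibitor Hexim1 (-0.20 and -0.26) and Ell2 (-0.26 and -0.19), and Aff1, a scaffold of the super elongation complex, was raised (0.23 and 0.30). Nelfa, Nelfcd and Nelfe, the other NELF subunits, had mean changes of -0.03, 0.04 and -0.06 and were not called. Of 20 genes for GR and its cofactors, 5 were lowered and none raised, among them Nr3c1, which encodes GR (-0.18 in the WT and -0.08 in the KO), and the NF-kB subunits Rela (-0.23 in each) and Nfkb1 (-0.17 in each). In both lists no genotype difference passed the adjusted test in limma, 2 genes of each had a higher change in the KO at an unadjusted p under 0.05 and 0 had a lower one, beside 4.6% and 2.36% of all genes.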
